A study of Oryza sativa with 4 samples.

Results

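The peaks described here are the OsLEC1-binding regions in the 4 arms of rice chromosomes 1 and 5. They were taken from the peak list of OsLEC1-ChIP, a chromatin immunoprecipitation sequencing (ChIP-seq) library from callus of the line 35S:3*FLAG-OsLEC1, in which the 35S promoter drives OsLEC1 with a FLAG tag. The other libraries were OsLEC1-input from the same callus, and NIP-ChIP and NIP-input from callus of the untagged wild type Nipponbare (NIP), with 1 library per group. All callus was grown from mature seeds for 30 days on induction medium with 10 μM 2,4-D, and the tagged line has the Nipponbare background. The callus of all groups was kept in the same daily cycle, with more hours of light than of dark. The antibody recognised the DDDDK epitope of the FLAG tag. For ChIP-seq, the study used 1 transgenic line and callus in place of young embryos, which could not be collected in the amount needed. The paper also examined binding at selected genes by ChIP-qPCR in embryos and callus. The 35S promoter is active in most tissues and not restricted to the cells that normally make OsLEC1. A peak was kept when its summit, the base with the highest ChIP coverage, lay more than 1 Mb inside the first base and the last summit of the chromosome and more than 2 Mb from the centromere, placed at 16.9 Mb on chromosome 1 and 12.4 Mb on chromosome 5. The rule uses positions alone. It kept 5998 of the 27452 OsLEC1 peaks (21.8%), of which 2767 were in the long arm of chromosome 1 (1L), 1242 in its short arm (1S), 1536 in the long arm of chromosome 5 (5L) and 453 in its short arm (5S).

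LEC1 is a B subunit of NF-Y, a trimeric transcription factor whose complete form recognises the CCAAT box. In Arabidopsis, LEC1 is a central regulator of embryo development and seed maturation. For the regions bound by OsLEC1 in callus, the paper reported a G-box motif and detected no CCAAT motif. In rice chromosomes, the regions around the centromeres are rich in repeats and poor in genes, and genes become denser toward the distal parts of the arms. Chromosomes 1 and 5 carry blocks of genes that go back to a whole-genome duplication in the ancestor of grasses, so that parts of the 2 chromosomes descend from the same ancestral sequence. Which genes lie under the peaks, and which of them are duplicate pairs, was not analysed here, because the gene table at hand is placed on another assembly than the peaks. The arms are compared here as stretches of chromosome on IRGSP-1.0.

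With 1 library per group, no difference could be set against a spread between callus samples, and no test was made. Intervals are exact, at 95%, and cover counting error alone. Read from the peak values, the depth was 3.49 fragments on an average base in OsLEC1-ChIP and at most 0.842 in NIP-ChIP. None of the 2 NIP peaks was on chromosome 1 or 5. Since the depth of NIP-ChIP has no useful lower bound, this count does not measure how much of the OsLEC1 signal in the arms is specific to the tag. The callus was measured in bulk, so weak binding in all cells and strong binding in a few cells cannot be told apart.

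The density of OsLEC1 peaks differed between the arms, and 5S stood apart with the fewest. There were 119 peaks per Mb in 1L (95% interval 114 to 123) over 23.3 Mb, and 89.4 in 1S (84.5 to 94.5) over 13.9 Mb. On chromosome 5 there were 106 peaks per Mb in 5L (101 to 112) over 14.4 Mb, and 48.2 in 5S (43.9 to 52.8) over 9.4 Mb. One peak was thus found every 8.44 kb in 1L, 11.2 kb in 1S, 9.39 kb in 5L and 20.8 kb in 5S. None of these counting intervals overlapped. The share of sequence covered by peaks followed the same order, with 6.44% in 1L, 4.43% in 1S, 5.34% in 5L and 2.01% in 5S. These intervals take peaks as placed evenly, which they were not. In complete 1 Mb bins counted outward from the centromere margin, the mean was 118 ± 37.3 peaks in 1L (SD, n = 23 bins), 87.7 ± 27.2 in 1S (n = 13), 105 ± 39.5 in 5L (n = 14) and 47.1 ± 17.0 in 5S (n = 9). The variance between bins was 11.8 times the mean in 1L, 8.46 times in 1S, 14.9 times in 5L and 6.15 times in 5S, where even placement would give about 1. The bins ranged over 36 to 172 peaks in 1L, 41 to 115 in 1S, 43 to 172 in 5L and 16 to 68 in 5S, so that single bins of all 4 arms overlapped although the arm values did not. The plot of density by arm shows both kinds of spread.

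**Figure D1:**
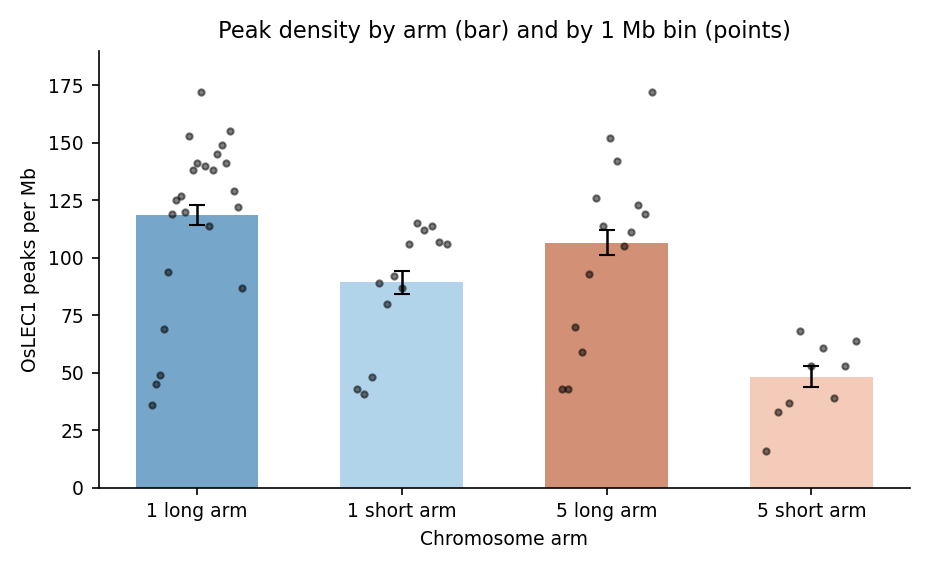
OsLEC1 peaks per Mb (y axis) in the 4 arms (x axis): bars give the count over the whole arm, error bars its exact 95% Poisson interval, and points the counts in complete 1 Mb bins, ordered from the centromere (left) outward. The bars stand at 119 (1L), 89.4 (1S), 106 (5L) and 48.2 (5S), and the points of each arm spread far beyond the error bar.

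The long arm was denser than the short arm on both chromosomes. The ratio of peaks per Mb was 1.33 (95% interval 1.24 to 1.42) for 1L to 1S and 2.21 (1.99 to 2.46) for 5L to 5S, and these intervals did not overlap. Between the chromosomes, the ratio was 1.11 (1.05 to 1.19) for 1L to 5L and 1.85 (1.66 to 2.07) for 1S to 5S. The arms differ in length, and density changed with the distance from the centromere. The same ratios were therefore taken over 9 Mb of each arm, either 2 to 11 Mb from the centromere or at the distal limit. Both comparisons were chosen after the densities were seen. Only the first compares the arms at equal distance from the centromere, since the distal 9 Mb lie further out in longer arms. In 5S, 9.4 Mb long, they are nearly the whole arm, with 452 of its 453 peaks. From 2 to 11 Mb from the centromere, 1L had 784 peaks and 5L had 842, a ratio of 0.931 (0.844 to 1.03), which turned the order of the 2 long arms. In the distal 9 Mb of each arm, 1L had 1197 peaks and 5L had 1178, a ratio of 1.02 (0.937 to 1.10). In either stretch, a difference between the 2 long arms was thus not detectable beyond counting error. Differences above 1.10 times in the distal part lay outside the interval. The long and short arms of chromosome 5 kept their order, with a ratio of 1.99 (1.76 to 2.24) from 2 to 11 Mb (842 peaks in 5L and 424 in 5S) and 2.61 (2.34 to 2.91) in the distal 9 Mb (1178 and 452 peaks). The ratio of 1S to 5S was 1.65 (1.46 to 1.87) from 2 to 11 Mb and 2.102 (1.88 to 2.36) in the distal 9 Mb. For 1L to 1S it was 1.12 (1.01 to 1.24) near the centromere and 1.26 (1.16 to 1.37) in the distal part. 5S was the sparse one among the arms under each of these comparisons.

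Along the arms, peaks were sparse next to the centromere margin and dense further out. In the first bin, from 2 to 3 Mb from the centromere, there were 36 peaks in 1L, 43 in 1S, 43 in 5L and 16 in 5S. From 4 to 5 Mb there were 49 in 1L, 48 in 1S, 70 in 5L and 37 in 5S, and from 5 to 6 Mb there were 69 in 1L, 89 in 1S, 59 in 5L and 68 in 5S. In this last bin 5S was within 1 peak of 1L, and from there the profiles parted. From 7 to 8 Mb, 1L had 119 peaks, 1S had 92, 5L had 126 and 5S had 61. From 9 to 10 Mb the counts were 127 in 1L, 106 in 1S, 152 in 5L and 53 in 5S. In 5S, no bin from 5 Mb outward had more than 68 peaks or fewer than 39, and the arm had no dense distal part of the kind seen in the others. 1S stayed between 106 and 115 peaks in each bin from 9 Mb outward. The long arms reached 172 peaks in 1 bin each, from 14 to 15 Mb in 1L and from 15 to 16 Mb in 5L, the outermost complete bin of 5L. In 1L the outermost complete bin, from 24 to 25 Mb, fell to 87 peaks after 122 in the bin before it. The last 1 Mb before the limit of 1L, which takes in the incomplete stretch beyond that bin, held 110. Compared bin by bin at equal distance, 1L was above 1S in 11 of 13 bins, 5L was above 5S in 8 of 9, 1S was above 5S in 9 of 9, and 1L was above 5L in 8 of 14. Neighbouring bins are places in 1 library and not replicates.

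**Figure D2:**
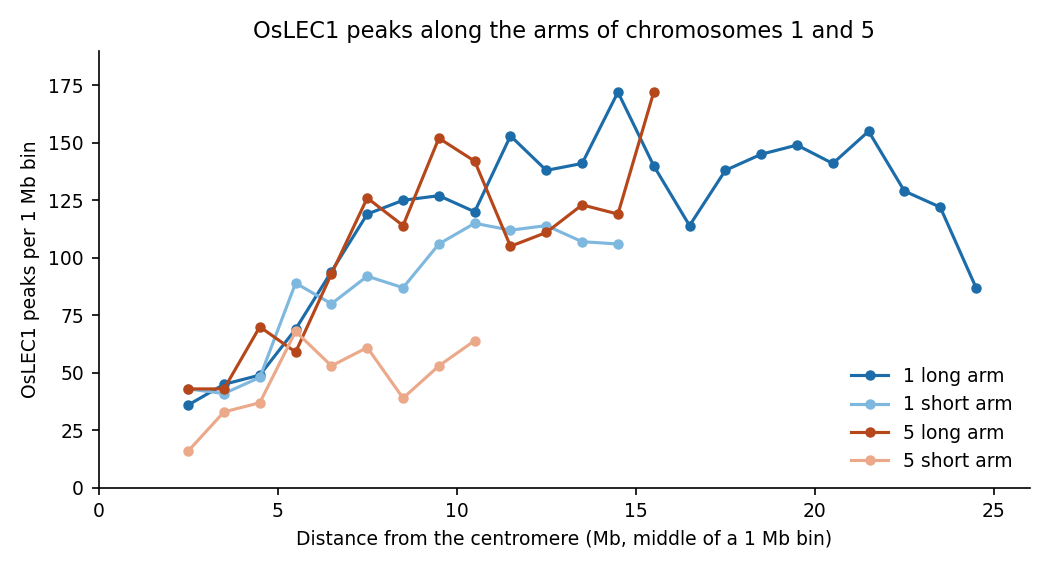
OsLEC1 peaks per complete 1 Mb bin (y axis) against the distance of the bin from the centromere in Mb (x axis), with 1 line per arm. The 4 lines start between 16 and 43 peaks, and beyond 6 Mb the line of 5S stays at or below 64 while the long arms pass 100 from 7 Mb outward, except the last bin of 1L at 87.

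With each arm cut into 3 parts of equal length, the inner part was the sparse one in all 4 arms. In 1L there were 80.9 peaks per Mb in the inner part (74.7 to 87.5), 138 in the middle part (130 to 146) and 137 in the outer part (128 to 145). In 1S they were 57.4 (50.7 to 64.7), 99.5 (90.6 to 109) and 111 (102 to 121). In 5L they were 60.5 (53.8 to 67.9), 129 (119 to 139) and 130 (120 to 141), and in 5S 29.4 (23.7 to 36.0), 61.0 (52.6 to 70.2) and 54.3 (46.4 to 63.1). The intervals of the middle and outer parts overlapped in each arm. The middle part of 5S had about as many peaks per Mb as the inner part of 5L.

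The limits of the rule did not mark a sharp step at each place. Across the centromere limit, the 1 Mb inside the arm and the 1 Mb outside it held 36 and 68 peaks in 1L, 43 and 26 in 1S, 43 and 40 in 5L and 16 and 15 in 5S. At the 1L limit, the peaks were thus denser on the centromere side. Across the limit at the chromosome end, the 1 Mb inside and the 1 Mb outside held 110 and 75 peaks in 1L, 121 and 71 in 1S, 168 and 101 in 5L and 68 and 76 in 5S. In 3 of the 4 arms the last stretch before the limit was denser than the chromosome end beyond it, and in 5S these counts were close.

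In windows of 100 kb, the median was 12 peaks in 1L, 9 in 1S, 10 in 5L and 5 in 5S. Windows without a peak were 1 of 233 in 1L, 1 of 139 in 1S, 1 of 144 in 5L and 6 of 94 in 5S. Windows with 20 or more peaks were found 23 times in 1L, 1 time in 1S, 7 times in 5L and 0 times in 5S. The densest window held 28 peaks in 1L (42000001 to 42100000), 25 in 1S (1700001 to 1800000), 25 in 5L (22200001 to 22300000) and 12 in 5S (6700001 to 6800000). The longest distances between neighbouring summits lay near the centromere margin. They were 181 kb in 1L (20865971 to 21046921), 135 kb in 1S (13644487 to 13779849), 218 kb in 5L (15245079 to 15462822) and 300.3 kb in 5S (9969068 to 10269357). All 12 of the 3 longest distances per arm ended within 4.64 Mb of the centromere. Distances of 100 kb or more were found 5 times in 1L, 7 times in 1S, 3 times in 5L and 8 times in 5S.

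The height of the peaks varied little between the arms. The fold given by the peak caller compares the pileup, which counts the ChIP fragments covering the summit, with the background found there, after adding 1 to each. Its median was 5.08 in 1L (95% interval 4.95 to 5.21), 5.28 in 1S (5.14 to 5.40), 5.22 in 5L (5.08 to 5.43) and 5.03 in 5S (4.90 to 5.32). The intervals of all pairs of arms overlapped. The median pileup was 41 fragments in 1L (40 to 42), 39.5 in 1S (38 to 41), 40 in 5L (39 to 41) and 36 in 5S (34 to 38). The pileup of 5S lay below those of 1L and 5L, and its interval met that of 1S at 38. The background is derived from the input near the summit, scaled to the ChIP library, with a floor of 3.49 fragments. Its median was 7.14 in 1L and 6.68 in each of 1S, 5L and 5S. In 1L, 90% of the values lay between 3.82 and 12.4, and in 5S between 3.49 and 11.4. Many peaks shared the same background values, such as 6.68, 7.63 and 8.59, so equal medians do not show equal input. The share of peaks at the floor was 1.99% in 1L (1.501 to 2.58%), 3.95% in 1S (2.93 to 5.18%), 3.97% in 5L (3.05 to 5.07%) and 9.05% in 5S (6.57 to 12.1%). Over whole arms, peaks on 5S thus stood more often where the input was low. In 1 Mb bins with under 60 peaks, the share at the floor was 11.3% in 5S (7.49 to 16.1%) and 11.03% in 5L (6.44 to 17.3%). It was 5.38% in 1L (2.19 to 10.8%) and 5.30% in 1S (2.16 to 10.6%), with intervals that overlapped. In bins with 60 to 119 peaks the intervals of all arms also overlapped, with 7.25% in 5S (4.02 to 11.9%). Within 2 Mb of the centromere the share was 8.86% on chromosome 1 and 9.47% on chromosome 5. The part of input coverage in the lower number of peaks on 5S was not tested.

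**Figure D3:**
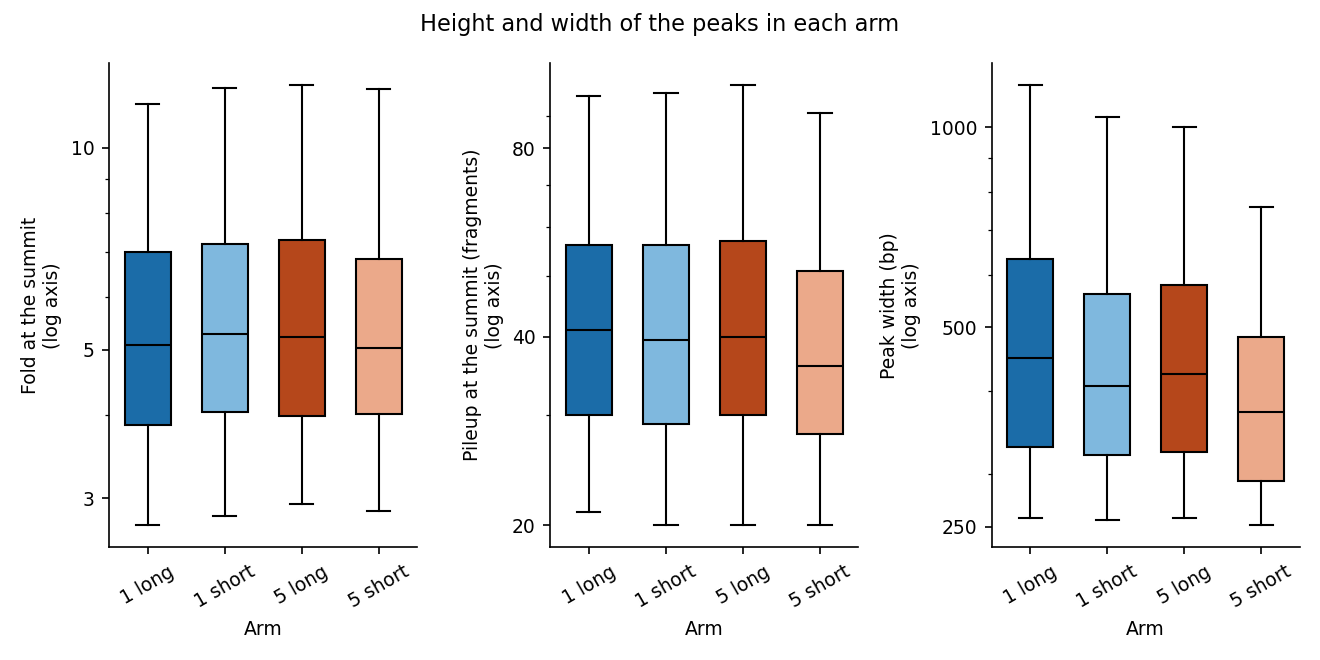
Fold at the summit, pileup at the summit in fragments and peak width in bp (log axes) for the peaks of each arm. Lines in the boxes are medians, boxes the quartiles and whiskers the values at 5% and 95%; the fold medians lie between 5.03 and 5.28, while the width medians run from 372 bp (5S) to 449 bp (1L).

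Strong peaks, taken here from a −log10 q-value of 50 upward, made up 8.00% of all OsLEC1 peaks. In the arms they were 237 of 2767 in 1L, or 8.57% (7.55 to 9.67%), 117 in 1S, or 9.42% (7.85 to 11.2%), 158 in 5L, or 10.3% (8.81 to 11.9%), and 36 in 5S, or 7.95% (5.63 to 10.8%). The shares of the 4 arms overlapped within counting error, and those of 1L, 1S and 5S also held the value of the whole list. Per Mb there were 10.2 strong peaks in 1L, 8.42 in 1S, 10.95 in 5L and 3.83 in 5S. The ratio of strong peaks per Mb was 2.86 (1.98 to 4.23) for 5L to 5S, 2.20 (1.501 to 3.29) for 1S to 5S, 1.21 (0.962 to 1.52) for 1L to 1S and 0.927 (0.754 to 1.14) for 1L to 5L. The scarcity of peaks in 5S was therefore also seen among strong peaks. For 1L to 5L the interval held equal densities as well as the ratio of 1.11 of all peaks, so strong peaks cannot decide on that excess. Weak peaks, with a −log10 q-value under 5, were 7.12% in 1L (6.19 to 8.14%), 6.60% in 1S (5.29 to 8.13%), 6.05% in 5L (4.91 to 7.37%) and 5.30% in 5S (3.42 to 7.78%). In the inner part of the arms, strong peaks were 7.62% in 1L (5.67 to 9.98%), 7.14% in 1S (4.35 to 10.9%), 11.7% in 5L (8.23 to 15.9%) and 2.17% in 5S (0.264 to 7.63%, 2 of 92 peaks). In the outer part they were 8.37% in 1L (6.78 to 10.2%), 9.90% in 1S (7.46 to 12.8%), 12.3% in 5L (9.83 to 15.1%) and 11.2% in 5S (6.86 to 16.9%). In the inner part, the interval of 5S overlapped those of 1L and 1S but not that of 5L. The middle part of 5S had 7.85% (4.46 to 12.6%), and in the outer part the intervals of all arms overlapped.

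The highest folds of the arms were found on the long arms, and they belonged to the highest of the genome. In 5L, the peak from 28717310 to 28718593 reached a fold of 38.1, the 2nd of the whole list, from a pileup of 219 fragments (191 to 250) over a background of 4.77. In 1L, the peak from 35122756 to 35123589 reached 37.8, the 4th of the list, from 289 fragments (257 to 324) over 6.68. The next in 1L, from 30862243 to 30863565, reached 36.1, the 5th of the list, from 187 fragments (161 to 216) over 4.21. Both peaks of 1L lay in dense surroundings, with 146 and 152 peaks of the arm within 500 kb of the summit. The leading peak of 5L had 100, but the limit of the arm toward the chromosome end falls inside these 500 kb, so that its count covers a shorter stretch. The peak from 14663829 to 14665485 in 5L was different. Its fold was 30.8, the 18th of the list, from 206 fragments (179 to 236) over 5.72, but it lay 2.27 Mb from the centromere and had 38 peaks of the arm within 500 kb. The leading peak of 1S also lay close to its centromere. It spanned 14284951 to 14286238, 2.61 Mb from the centromere with 43 peaks within 500 kb, and its 262 fragments (231 to 296) over 8.59 gave a fold of 27.4. For the 2nd peak of 5L, the limit of the arm falls inside the 500 kb on the centromere side. The leading peak of 5S, from 5316402 to 5317030, had a fold of 26.5, the 43rd of the list, from 118 fragments (97.7 to 141) over a background at the floor of 3.49. The pileup of this peak was below those of the leading peaks of the other arms, and the intervals did not overlap.

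The remaining peaks among the 5 with the highest fold had folds from 25.6 to 29.0 in 1L, 23.6 to 26.3 in 1S, 21.1 to 24.2 in 5L and 20.5 to 22.1 in 5S. Their pileups ranged from 97 to 197 fragments. In 1L they started at 31185163, 33761919 and 40690501, and in 1S at 5324275, 2694920, 6257434 and 9285689. In 5L they started at 24996926, 16686571 and 14909149, and in 5S at 6743742, 2785723, 1426317 and 1246743. The peak of 1S from 2694920 to 2695743 stood alone, with the nearest other summit 26.1 kb away, and the one of 5S from 1246743 to 1247348 had another summit at 1.02 kb. Among the 100 highest folds of the whole list, 8 were in 1L, 7 in 1S, 4 in 5L and 2 in 5S, together 21.0% (13.5 to 30.3%). Among the 1000 highest, these arms held 94, 54, 65 and 22, together 23.5% (20.9 to 26.3%). Their share of all peaks was 21.8%, inside both intervals. The 22 of 5S were 2.20% (1.38 to 3.31%) of the 1000, and 5S held 1.65% of all peaks.

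The width of the peaks differed more between the arms than their height. The median width was 449 bp in 1L (439 to 457), 407 bp in 1S (396 to 417), 424.5 bp in 5L (413 to 434) and 372 bp in 5S (353 to 386). The intervals of 1L and 5S overlapped no other. Broad peaks, of at least 1000 bp, made up 5.21% of all OsLEC1 peaks. They were 224 in 1L, or 8.10% (7.11 to 9.17%), 66 in 1S, or 5.31% (4.13 to 6.71%), 80 in 5L, or 5.21% (4.15 to 6.44%), and 7 in 5S, or 1.55% (0.623 to 3.16%). The shares of 1S and 5L were near that of the whole list, 1L was above it and 5S below it. Per Mb, there were 9.59 broad peaks in 1L, 4.75 in 1S, 5.55 in 5L and 0.745 in 5S. The ratio per Mb was 1.73 (1.33 to 2.26) for 1L to 5L, 2.02 (1.53 to 2.70) for 1L to 1S, 7.45 (3.45 to 19.1) for 5L to 5S and 6.38 (2.93 to 16.5) for 1S to 5S. Over whole arms, broad peaks thus separated the 2 long arms beyond counting error, while the interval for strong peaks held equal densities. The ratios of broad peaks were not taken at equal distance from the centromere, so a difference between the long arms at like distance is not shown.

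Higher peaks were wider in all 4 arms, so width was also read at like height. For pileups of 20 to 29 fragments the median width was 325 bp in 1L (313 to 335), 328 bp in 1S (305 to 339), 326.5 bp in 5L (314 to 341) and 294 bp in 5S (277 to 309). For 30 to 39 fragments the arms lay between 335 bp (5S) and 361 bp (1L), with intervals that overlapped. For 40 to 59 fragments it was 482 bp in 1L (468 to 496), 416 bp in 1S (405 to 449), 450.5 bp in 5L (432 to 465) and 397 bp in 5S (373 to 428). In this class 1L was wider than each of the other arms beyond counting error. For 60 to 99 fragments it was 622 bp in 1L (594 to 664), 561 bp in 1S (522 to 597), 566 bp in 5L (546 to 614) and 537 bp in 5S (498 to 572). For 100 or more fragments it was 798 bp in 1L (722 to 878), 746 bp in 1S (673 to 846), 714 bp in 5L (612 to 781) and 651 bp in 5S (585 to 776), and all intervals overlapped. The share of broad peaks in the class of 60 to 99 fragments was 18.3% in 1L (14.9 to 22.1%), 12.9% in 1S (8.63 to 18.4%), 11.4% in 5L (7.91 to 15.8%) and 1.75% in 5S (0.0444 to 9.39%, 1 of 57 peaks). The median background in the same class was 8.59 in 1L, 8.06 in 1S and 7.63 in both 5L and 5S, so that the arms were not equal in input at like pileup.

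**Figure D4:**
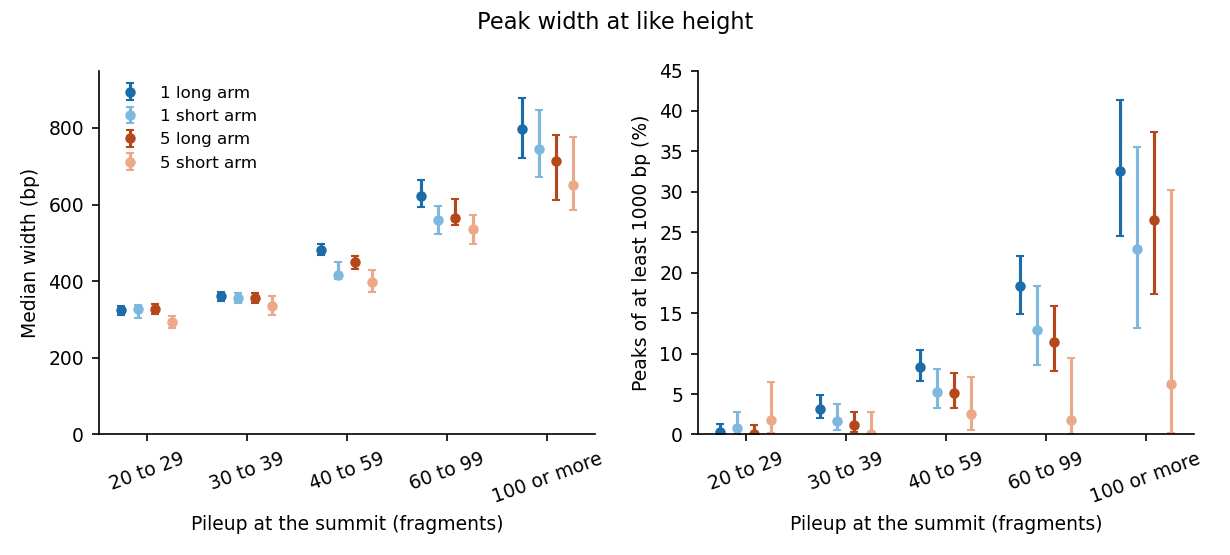
Median peak width in bp (left) and percent of peaks of at least 1000 bp (right) by pileup class in fragments (x axis), with 1 point per arm and exact 95% intervals as error bars. Width grows with the pileup in every arm, and the points of 1L lie above those of 5S in each class for the median width, with overlapping error bars at 30 to 39 and at 100 or more fragments.

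Width also went with local density. In bins with under 60 peaks, broad peaks were 1.54% of 130 peaks in 1L (0.187 to 5.45%), 1.52% of 132 in 1S (0.184 to 5.37%), 4.14% of 145 in 5L (1.53 to 8.79%) and 0.433% of 231 in 5S (0.0110 to 2.39%). In bins with 60 to 119 peaks they were 5.59% in 1L (3.72 to 8.03%), 5.36% in 1S (4.05 to 6.93%), 4.41% in 5L (2.93 to 6.35%) and 3.11% in 5S (1.15 to 6.64%). In bins with 120 or more peaks, which only the long arms had, they were 8.93% in 1L (7.74 to 10.2%) and 6.15% in 5L (4.51 to 8.17%). The intervals of these shares overlapped between the arms within each class, which does not show that the shares were equal. The median width in bins with 60 to 119 peaks was 444 bp in 1L (418 to 461), 404.5 bp in 1S (394 to 418), 421.5 bp in 5L (407 to 436) and 373 bp in 5S (342 to 397). In this class the interval of 5S lay below those of 1L and 5L. Its bins held 61 to 68 peaks in 5S, 69 to 119 in 1L, 80 to 115 in 1S and 70 to 119 in 5L. The median pileup in the class was 34 in 5S, 39 in 1L and 40 in both 1S and 5L. The class therefore does not compare widths at like density or like height. In bins with under 60 peaks the medians lay between 370 bp (5L) and 389 bp (1L), with intervals that overlapped. Across the 59 bins, the number of peaks went with the median width (Spearman rho 0.734), the median pileup (rho 0.712) and the median background (rho 0.658), and not with the median fold (rho 0.0903). Within the 9 bins of 5S, rho was negative for the width (-0.510), the pileup (-0.418) and the background (-0.289). In the other arms it was positive, from 0.371 to 0.715 for the width, 0.605 to 0.617 for the pileup and 0.392 to 0.681 for the background. No interval was taken for rho, and with 9 bins in 5S, the sparsest holding 16 peaks, the sign in that arm is uncertain. The bins share 1 library and its depth.

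The widest peaks were not the highest ones. In 1S, the peak from 1705299 to 1708686 covered 3388 bp and had a fold of 5.78, from 82 fragments (65.2 to 102) over a background of 13.4. It lay in the densest 100 kb window of that arm. The widest peak of 1L, from 29934968 to 29937583, covered 2616 bp with a fold of 13.3 (99 fragments, 80.5 to 121, over 6.52). That of 5L, from 24428581 to 24431132, covered 2552 bp with a fold of 8.00 (91 fragments, 73.3 to 112, over 10.5). That of 5S, from 7747522 to 7748963, covered 1442 bp with a fold of 4.60 (29 fragments, 19.4 to 41.6, over 5.53). The next widest were 2586 and 2569 bp in 1L, 2693 and 2378 bp in 1S, 2471 and 2063 bp in 5L, and 1272 and 1235 bp in 5S. The one of 2471 bp in 5L, from 26092517 to 26094987, combined width and height, with a fold of 13.2 and 151 fragments (128 to 177). The summit lay in the middle of the peak, between 1/3 and 2/3 of its width, in 70.3% of peaks in 1L (68.6 to 72.0%), 73.1% in 1S (70.5 to 75.6%), 75.0% in 5L (72.8 to 77.1%) and 80.4% in 5S (76.4 to 83.9%). The arm with the narrowest peaks, 5S, had the highest share of central summits. Its interval overlapped that of 5L and lay above those of 1L and 1S.

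Neighbouring summits were closest in the long arms and farthest apart in 5S. The median distance was 4.86 kb in 1L (4.59 to 5.12), 6.33 kb in 1S (5.78 to 6.84), 5.49 kb in 5L (5.12 to 5.80) and 11.3 kb in 5S (9.87 to 13.3). The intervals of 1L and 5L met at 5.12 kb, and those of 5L and 1S overlapped between 5.78 and 5.80 kb. The interval of 1S lay above that of 1L, and the interval of 5S above all others. Distances under 2 kb made up 18.1% of all distances in the genome. They were 608 of 2766 in 1L, or 22.0% (20.5 to 23.6%), 223 of 1241 in 1S, or 18.0% (15.9 to 20.2%), 321 of 1535 in 5L, or 20.9% (18.9 to 23.0%), and 46 of 452 in 5S, or 10.2% (7.55 to 13.3%). The shares of 1L and 5L were above that of the genome and that of 5S below it, as their densities were. At under 1 kb the order of 1L, 1S and 5L changed, with 5.13% in 1L, 5.64% in 1S, 6.64% in 5L and 3.54% in 5S. Chains of 3 or more summits, each under 2 kb from the next, numbered 112 in 1L, 32 in 1S, 63 in 5L and 7 in 5S. They held 13.5% of the peaks in 1L (12.2 to 14.8%), 8.62% in 1S (7.11 to 10.3%), 13.9% in 5L (12.2 to 15.8%) and 4.64% in 5S (2.89 to 6.999%). By this measure the intervals of the 2 long arms overlapped, and both lay above those of the short arms. The longest chains had 6 summits, at 27210508 to 27217160 and 33834273 to 33841359 in 1L and at 27677214 to 27683894 in 5L. In 1S the longest had 5 summits, and 1 of its 2, from 14478048 to 14484473, lay in the sparse inner part of the arm. In 5S no chain had more than 3 summits.

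**Figure D5:**
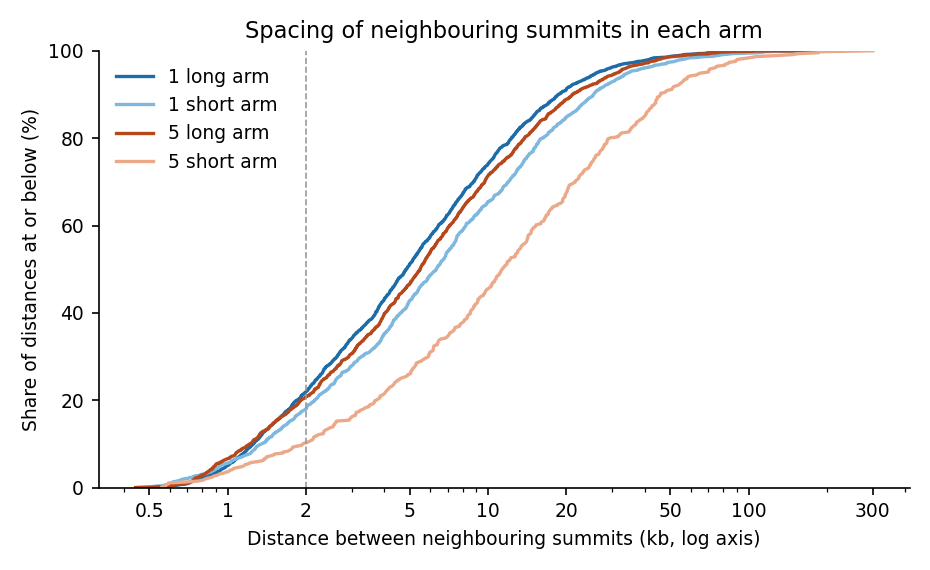
Cumulative share (%) of distances between neighbouring summits (kb, log axis) for each arm, with a dashed line at 2 kb. At 2 kb the curves stand at 22.0% (1L), 18.0% (1S), 20.9% (5L) and 10.2% (5S), and the curve of 5S stays to the right of the others above that distance.

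Compared with the rest of the series, the 4 arms together had 98.2 peaks per Mb (95.7 to 101), and the other 10 chromosomes had 69.8 (68.8 to 70.7). The values of the other chromosomes include their centromeres and ends. These densities, and the heights, widths and shares that follow, are therefore not like for like. The median fold was 5.18 in the arms (5.08 to 5.22) and 5.11 on the other chromosomes (5.08 to 5.15). Peaks had a median width of 425 bp in the arms (420 to 431) and 403 bp on the other chromosomes (400 to 407), and the median pileup was 40 (40 to 41) and 38 fragments (38 to 38). Strong peaks made up 9.14% in the arms (8.42 to 9.89%) and 7.69% on the other chromosomes (7.33 to 8.06%), and broad peaks 6.29% (5.68 to 6.93%) and 4.92% (4.63 to 5.22%). Of the 377 broad peaks in the arms, 224 were in 1L. Within 2 Mb of the centromere, there were 39.5 peaks per Mb on chromosome 1 (33.6 to 46.2) and 23.8 on chromosome 5 (19.2 to 29.0). Both lay below 1L, 1S and 5L, and the interval of chromosome 1 overlapped that of 5S. In these regions the median fold was 5.08 on chromosome 1 (4.63 to 5.35) and 5.12 on chromosome 5 (4.69 to 5.89), within the range of the arms.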

How the data were processed

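ChIP-seq was performed by the authors on callus of 35S:3*FLAG-OsLEC1 and NIP, with an input library for each. Per the study's methods and the submitters' processing notes, reads were aligned to IRGSP-1.0 with Bowtie2 2.3.4.1, only reads with a unique position were used, and MACS2 2.1.2 called peaks against the input at a q-value of 0.01. A reproducibility filter over biological replicates is named in the methods, but the labels show 1 library per group. The library kit in the labels differs from that in the methods.

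The values deposited by the authors for a peak are its fold (a ratio), its q-value and p-value as −log10, its summit as a distance from the start, and a score. In 100% of OsLEC1 peaks this deposited score was the −log10 q-value times 10, without its decimals. Starts were changed to 1-based positions. The pileup and background of each peak were solved from the fold and the −log10 p-value, which share them through a Poisson tail. A whole-number pileup gave the −log10 p-value back within 0.001 for 100% of OsLEC1 peaks, and for 100% of 2000 simulated peaks with known pileups. The lowest background is the mean coverage of the library.

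Counts had exact Poisson intervals, ratios of counts exact conditional binomial intervals, shares exact Clopper-Pearson intervals and medians exact binomial intervals of order statistics, all at 95%. Positions of centromeres came with the selection rule. Peaks were named by rule: in each arm the 5 with the highest fold and the 3 widest, the sparsest and densest bins and the longest distances. The 100 kb windows, chains, classes of pileup and density and matched distances were added once the data had been seen. The members and lists were chosen with earlier results of these data known. Python 3.11.15, numpy 2.4.6, pandas 2.3.3, scipy 1.17.1 and matplotlib 3.10.9 were used. Genes, duplicate pairs and motifs, planned for an annotation or genome on IRGSP-1.0, were not analysed here.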

Additional observations from a re-analysis of the deposited data

How the results depend on the processing

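The settings from 2 to 11 Mb from the centromere and in the distal 9 Mb were chosen after the data were seen. Limits of −log10 q-value lower the density by construction, since fewer peaks are counted. At 5 or more there were 110.1 peaks per Mb in 1L, 83.5 in 1S and 100.04 in 5L, and at 10 or more 84.2 in 1L, 64.7 in 1S, 77.6 in 5L and 33.3 in 5S. The median of 1 Mb bins was 127 in 1L, 112.5 in 5L and 53 in 5S. With 3 Mb left out at the chromosome ends, 5L had 98.5 peaks per Mb and the ratio of 1L to 5L was 1.21. From 2 to 11 Mb from the centromere, the ratio of 1L to 5L turned to 0.931, and the others were 1.12 (1L to 1S), 1.99 (5L to 5S) and 1.65 (1S to 5S). In the distal 9 Mb the ratios were 1.02 (1L to 5L), 2.61 (5L to 5S) and 2.102 (1S to 5S). The cause of these shifts was not tested. At a width of 800 bp or more, the shares were 15.0% in 1L, 10.1% in 1S, 10.5% in 5L and 3.75% in 5S. Distances under 1 kb made up 5.13% in 1L, 5.64% in 1S, 6.64% in 5L and 3.54% in 5S, and those under 5 kb 51.1% in 1L, 42.8% in 1S, 46.6% in 5L and 25.9% in 5S. Among peaks with a −log10 q-value of 10 or more, those under 2 kb made up 14.9% in 1L, 13.01% in 1S, 15.1% in 5L and 6.73% in 5S. The other densities and ratios stayed within their counting intervals at both limits, with 3 Mb from the centromere or the ends, and with the median of bins. The peak numbers of the arms changed by less than 1.5 times. Of 16 medians of fold, width, pileup and background, 4 moved at the limit of 5 and 12 at the limit of 10, all upward, and the background did not move. Since these limits drop mainly low peaks, upward moves of fold and pileup follow by construction. Width went with pileup, so its moves are no separate result. At a −log10 q-value of 20 or more, the share of strong peaks was 33.6 to 39.8% in the arms. No paired analysis was possible because no group had a second library. For the same reason no replicate could be left out. Settings for genes, gene pairs and motifs were not run.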

Other observations

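The heights of neighbouring peaks were nearly unrelated. Over all 4 arms, the pileups of neighbouring summits gave a Spearman rho of 0.0607 for 1198 pairs under 2 kb apart, 0.0564 for 2964 pairs from 2 to 10 kb apart and 0.0214 for 1832 pairs over 10 kb apart. Within single arms, the pairs under 2 kb gave 0.0418 in 1L, 0.0445 in 1S, 0.0964 in 5L and 0.0721 in 5S. Within a peak, the pileup went with the width, with rho between 0.543 and 0.599 in the 4 arms. These relations are across peaks of 1 library and share its depth and local background.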
